A study of Homo sapiens with 38 samples.

Results

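Intron-retaining transcripts of protein-coding genes were followed in nuclear and cytoplasmic RNA of HCT116 cells, a human colorectal cancer line. The members were the transcripts that GENCODE labels retained_intron within a gene it labels protein_coding, provided that the gene averaged a TPM (a transcript abundance corrected for transcript length and library size) of at least 5 over the 30 libraries. They numbered 17718 of the 200401 transcripts quantified, and they fell in 5286 of the 8097 genes that met this level, or 65.3%. The value followed for each gene was its retained share, the summed TPM of its members as a percentage of the TPM of all its transcripts. Mean gene TPM chose the genes, and the genes nearest the limit were METTL4 at 5.011, HBA2 at 5.011 and TP73 at 5.005 TPM inside it, and PCTP at 4.999, NADK2 at 4.997 and NCOA1 at 4.991 TPM outside it. Of the 5286 genes, 4443 averaged 0.5 TPM or more both for the members and for the rest of the gene and were tested.

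The study measured what loss of Argonaute (AGO) proteins, the small RNA-binding proteins of RNA interference, does to RNA in each compartment. Total RNA was depleted of ribosomal RNA and sequenced from nuclei and from cytoplasm of wild-type (WT) cells and of AGO1 KO, AGO2 KO, AGO1/2 KO cells and AGO1/2/3 KO cells, with 3 libraries in each of the 10 groups. All lines were grown in McCoy's 5a medium with fetal bovine serum and received no further treatment. Each knockout was 1 CRISPR-edited line, and the replicates were different passages of it. WT cells were at passages 27 to 29 against 6 to 14 for the knockouts. Genotype, line and passage therefore cannot be told apart. The p-values measure the spread between passages within a line, which limma pools over all lines in the fit, and not the spread between independently edited lines. Within each fraction every knockout comparison also shares the same 3 WT libraries.

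Most introns are removed while the transcript is still being made, and a transcript that keeps one is commonly held in the nucleus or destroyed by nonsense-mediated decay once it reaches the cytoplasm. A subset, called detained introns, stays in otherwise finished nuclear transcripts and is spliced later, for example on a signal through CLK kinases, which phosphorylate SR splicing factors. Unspliced precursor RNA shares its intron sequence with such transcripts, so in these values precursor and finished transcripts cannot be told apart.

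Depth ran from 20431557 to 54097984 estimated reads in the nuclear libraries and was lowest in nuclear WT and highest in nuclear AGO1/2 KO. In cytoplasm too WT was shallowest, with a mean of 41950940 estimated reads against means of 71918000 to 78544933 in the knockouts. Members above 0 TPM averaged 10667 in WT cytoplasm and 11964 to 12228 in the knockouts, so depth and genotype go together in both fractions. The nuclear RNA MALAT1 averaged 3041 ± 407 TPM (SD, n = 3) in WT nuclei and 119 ± 34.3 in WT cytoplasm. In the knockout nuclei it averaged 1814 in AGO1 KO, 1775 in AGO2 KO, 1313 in AGO1/2 KO and 1355 in AGO1/2/3 KO, while GAPDH mRNA averaged 1263 ± 172 TPM in WT nuclei and 2666 ± 162 in AGO1/2 KO nuclei. The epithelial markers were detected but differed between the lines. In WT, AGO1/2 KO and then AGO1/2/3 KO nuclei CDH1 averaged 21.3, 4.15 and 5.77 TPM and EPCAM 98.1, 62.7 and 62.2, while KRT8 averaged 498, 1212 and 977, KRT18 369, 826 and 630, KRT19 226, 574 and 497 and CLDN4 21.3, 34.9 and 33.9. Their part in the results was not tested. The leukocyte, endothelial, fibroblast and hepatocyte markers PTPRC, PECAM1, COL1A2 and ALB reached at most 0.414 TPM in any nuclear library. Nuclear AGO1 RNA went from 11.2 TPM in WT to 3.78, 2.73 and 2.65 in the 3 lines edited at AGO1, and nuclear AGO2 RNA went from 53.0 to 30, 34.3 and 26.1 TPM in those edited at AGO2. AGO3 RNA was 14.7 TPM in AGO1/2/3 KO nuclei and 15.0 in AGO1/2 KO nuclei, so RNA level does not check that label, since an edit can disable a gene and leave its RNA.

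Members were mostly partial. An intron of the gene's canonical transcript lay whole inside an exon of 5021 members, 28.3%, whereas 12534 members, 70.7%, held part of an intron and 163 held none. Introns kept whole were short and GC-rich, with a median length of 240 bases (interquartile range 115 to 568) and a median GC content of 55.1% over 5402 introns. The 65766 other introns of genes with a member had medians of 1536 bases (529 to 3782) and 42.5%. The retained introns came from 2344 genes and the others from 5255, so differences between genes enter this contrast. An intron counted as kept whole only if it lay inside an exon of a member, and such members had a median length of 1002 bases. The definition itself therefore favours short introns, and GC content was not compared at equal length. Introns kept only in part by a member count among the others. GT-AG ends were carried by 98.9% of the retained and 99.1% of the other introns, and the median pyrimidine content of the 3′ end was 76.5% in both. The strong donor start GTAAG was less frequent in the retained introns, at 19.2% against 28.1%. First introns made up 5.53% of the retained set and 7.58% of the others.

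The splice sites of 6 introns kept whole by a member are shown so that the ends of such introns can be seen, 3 from genes named by the selection rule (MARCHF6, UBE2A and SRGAP1) and 3 (PRPF39, CLK1 and VMP1) chosen after their values were seen. Each donor has 8 exon bases and 12 intron bases with the first 6 intron bases in capitals, and each acceptor has 20 intron bases ending in the capital AG and 3 exon bases. Positions are on hg38 (GRCh38) and all sequences read 5′ to 3′ on the gene's strand. They were MARCHF6 intron 11 of 25 (chr5:10400843-10402058, plus strand), UBE2A intron 2 of 5 (chrX:119574982-119575374, plus), SRGAP1 intron 20 of 21 (chr12:64127725-64127860, plus), PRPF39 intron 3 of 13 (chr14:45096229-45096886, plus), CLK1 intron 3 of 12 (chr2:200860216-200861237, minus) and VMP1 intron 11 of 11 (chr17:59838398-59839767, plus).
MARCHF6 donor: aagaacacGTGAGTataata
MARCHF6 acceptor: tacttttttcttatttccAGgtc
UBE2A donor: attttcggGTGAGTctgcgt
UBE2A acceptor: catttttctctgtgttgcAGgcc
SRGAP1 donor: ttagccagGTAAGTagagcc
SRGAP1 acceptor: ctgtttctgtgaatgtctAGgca
PRPF39 donor: cagatgagGTGCGTacatca
PRPF39 acceptor: gtttgctgttttcttcttAGgtt
CLK1 donor: cacatgggGTATGAacgttt
CLK1 acceptor: cgcccacttgacgtttccAGaag
VMP1 donor: caccacagGTAAGActttaa
VMP1 acceptor: ttctgcatttatttctacAGgga
All 6 have GT at the donor and AG at the acceptor, and GTAAG opens the SRGAP1 and VMP1 introns.

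Intron-retaining transcripts made up a larger part of nuclear RNA than of cytoplasmic RNA, and that nuclear part was lower in every knockout. Members held 15.3%, 15.9% and 15.5% of the TPM of eligible genes in the 3 WT nuclear libraries and 3.20% ± 0.0166 (SD, n = 3) in WT cytoplasm, a ratio of 4.85. The nuclear libraries held 13.4%, 12.9% and 13.3% in AGO1 KO, 12.3%, 11.9% and 12.2% in AGO2 KO, 8.27%, 7.97% and 8.68% in AGO1/2 KO, and 10.3%, 9.65% and 8.98% in AGO1/2/3 KO. No knockout group overlapped WT nuclei, and AGO1/2 KO lay at 0.534 of the WT mean and AGO1/2/3 KO at 0.619. The exact permutation test over samples (two-sided, 3 against 3) gave p = 0.1 for each nuclear comparison, which is the smallest it allows, and 0.118 after Benjamini-Hochberg adjustment over 13 comparisons, so no such comparison could pass 0.05. Counted as estimated reads rather than TPM, members took 9.08% ± 0.212 of eligible reads in WT nuclei, 4.44% ± 0.194 in AGO1/2 KO nuclei and 5.18% ± 0.403 in AGO1/2/3 KO nuclei.

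**Figure D1:**
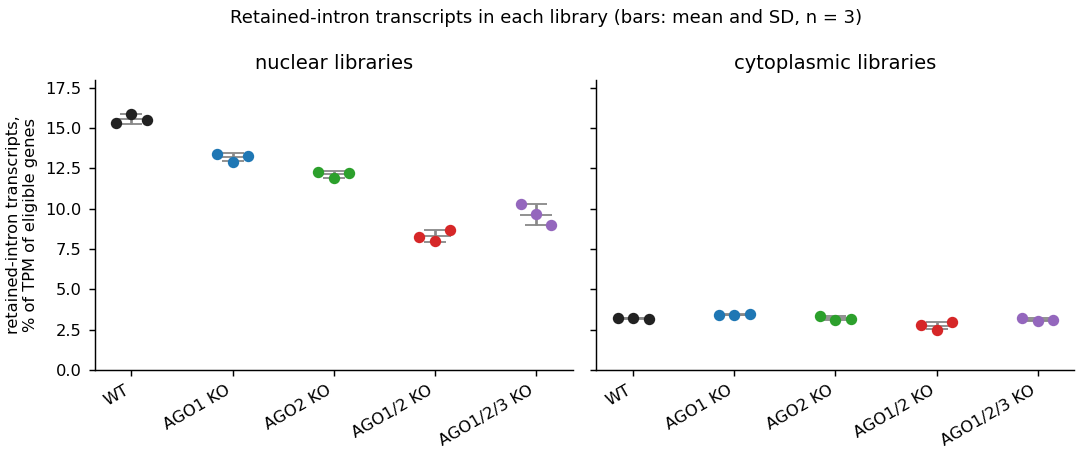
Percentage of the TPM of eligible genes held by retained-intron transcripts in each library (points), with the group mean and SD (grey, n = 3), in nuclei (left) and cytoplasm (right). All nuclear knockout libraries sit at or below 13.4%, under the WT libraries at 15.3% to 15.9%, and the cytoplasmic groups average 2.75% to 3.43%.

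Cytoplasm moved much less. The cytoplasmic means were 3.43% ± 0.0507 in AGO1 KO, 3.22% ± 0.118 in AGO2 KO, 2.75% ± 0.222 in AGO1/2 KO and 3.12% ± 0.0720 in AGO1/2/3 KO (SD, n = 3). AGO1 KO lay above WT and AGO1/2 KO below it without overlap, each at the floor of exact p = 0.1, while AGO2 KO (exact p = 0.900) and AGO1/2/3 KO (exact p = 0.300) overlapped WT. The direction in AGO1/2 KO depended on the measure, since the median share over genes was 0.436 percentage points higher than in WT (exact p = 0.1) and members with a whole intron differed by -0.0227 (exact p = 0.7). In AGO1/2/3 KO both measures turned the difference upward, to 0.0908 and 0.0438. The nuclear to cytoplasmic ratio was 3.85 in AGO1 KO, 3.77 in AGO2 KO, 3.02 in AGO1/2 KO and 3.09 in AGO1/2/3 KO. In RNA from pooled cells, fewer cells that keep an intron and less such RNA per cell cannot be told apart.

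All 3 kinds of member held less of the eligible TPM in AGO1/2 KO nuclei than in WT nuclei, and those with no intron base differed by the least. Members with a whole intron held 4.3% ± 0.129 of eligible TPM in WT nuclei and 2.28% ± 0.108 in AGO1/2 KO nuclei, a ratio of 0.529. Members with part of an intron held 11.1% ± 0.153 and 5.89% ± 0.251, a ratio of 0.531. Members with no intron base held 0.172% ± 0.00459 and 0.140% ± 0.00400, a ratio of 0.815, and their nuclear to cytoplasmic ratio in WT was 1.79 against 6.40 for whole introns and 4.55 for partial ones.

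Across genes the median retained share was 24.7% in WT nuclei and 2.35% in WT cytoplasm. It was 21.9% in AGO1 KO, 19.9% in AGO2 KO, 13.5% in AGO1/2 KO and 16.0% in AGO1/2/3 KO nuclei, and stayed between 2.42% and 2.80% in the knockout cytoplasm. More than 50% of a gene's TPM came from members in 525 of the 4443 genes in WT nuclei, in 224 in AGO1/2 KO nuclei and in 97 in WT cytoplasm.

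**Figure D2:**
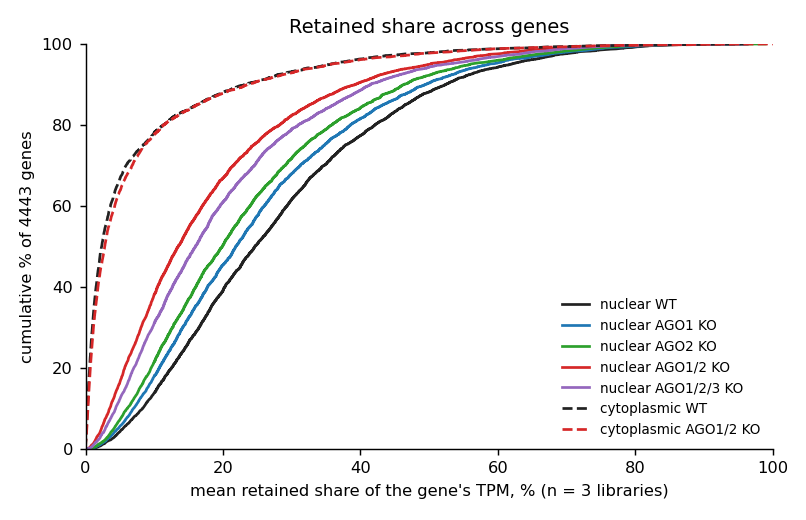
Cumulative percentage of the 4443 tested genes (y axis) by mean retained share (x axis, %, n = 3 libraries) in nuclei of the 5 genotypes (solid) and in cytoplasm of WT and AGO1/2 KO (dashed). The nuclear curves stand in the order WT, AGO1 KO, AGO2 KO, AGO1/2/3 KO and then AGO1/2 KO from high to low share, and the cytoplasmic curves lie at much lower shares.

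The first comparison asked which genes kept intron-retaining transcripts in the nucleus of WT cells. TRA2B, which encodes an SR-like splicing activator, had a retained share of 89.1%, 90.4% and 92.6% in WT nuclei and 9.22%, 9.63% and 3.96% in WT cytoplasm. SAT1, the rate-limiting enzyme of polyamine breakdown, had 73.2%, 75.7% and 73.6% in nuclei and 2.11%, 1.79% and 1.5% in cytoplasm, with 304 TPM of member transcripts in nuclei. PRPF39, a U1 snRNP-associated splicing factor, had 75.1%, 72.5% and 80.6% against 3.08%, 5.88% and 1.96%. In all 3 genes the fractions were far apart. UBE2G2, a ubiquitin-conjugating enzyme of endoplasmic reticulum quality control, went from 86.9% ± 2.37 in nuclei to 10.5% ± 1.64 in cytoplasm, and RYK, a Wnt receptor, from 82.8% ± 1.27 to 2.79% ± 2.78 (SD, n = 3). In limma's moderated test of the log2 ratio of members to the rest of the gene, at a Benjamini-Hochberg adjusted p of 0.05 and a change of at least 10 percentage points, 3268 of the 4443 genes had a higher and 25 a lower share in WT nuclei. The same rule called 58.2% of all 15662 pairs of gene and transcript class, the background against which these 74.1% stand, with 28.8% of pairs higher and 29.3% lower. In place of 3293 genes in either direction, 2074 were called by estimated reads, 2050 with edgeR on those reads and 1032 with the members that keep a whole intron. The classes of a gene add up to its whole, so a lower share of members goes with a higher share of another class. Between the fractions of the knockouts 3043, 2787, 1770 and 2274 genes were called in AGO1 KO, AGO2 KO, AGO1/2 KO and then AGO1/2/3 KO, where 53.7%, 48.2%, 30.2% and 38.5% of all pairs were called (26.4%, 23.7%, 14.8% and 18.9% higher, and 27.2%, 24.5%, 15.4% and 19.5% lower). Among the 3268 genes the members' TPM was higher in nuclei by a median of 3.72 log2 units, and that of the rest of the gene by 0.02.

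Single transcripts are given as examples and add no support to the contrast. Each is its gene's member with the highest mean TPM in WT nuclei, and PRPF39, CLK1 and VMP1 were chosen after their values were seen. MARCHF6-210, which keeps the intron 11 shown above and belongs to a ubiquitin ligase of the endoplasmic reticulum, averaged 21.0 TPM in WT nuclei and 1.01 in WT cytoplasm. PRPF39-203, with intron 3 kept, averaged 9.76 and 0.0651 TPM. CLK1-210, which keeps intron 3 and a further intron, averaged 10.3 and 0.132 TPM. VMP1-217, from an endoplasmic reticulum protein of autophagy, averaged 126 TPM in WT nuclei and 1.08 in cytoplasm. The microRNA gene MIR21 overlaps the 3′ end of VMP1 on the same strand, so that reads from its precursor and from VMP1-217 cannot be told apart.

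A high nuclear share did not always go with a nuclear excess. Among the 10 genes with the highest share in WT nuclei at 20 TPM or more, TRA2B, CCNL1, UBE2G2 and PAXBP1 had shares of 81.2% to 90.7% in nuclei and 7.60% to 28.9% in cytoplasm. MALSU1, a mitochondrial ribosome assembly factor, had 90.3% ± 1.47 in nuclei and 93.2% ± 0.521 in cytoplasm, and RPS28, a small ribosomal subunit protein, had 81.9% ± 1.35 and 81.5% ± 0.161. RAB21 (85.4% and 90.4%), BOLA2B (84.3% and 77.2%), OAZ1 (82.2% and 83.2%) and WDR12 (81.8% and 82.8%) were likewise high in both. The most abundant member of these 6 genes held between 22 and 69 intronic bases, against 2339 in TRA2B and 465 in UBE2G2. BOLA2B has a near-identical copy elsewhere in the genome, so its values are uncertain.

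The 25 genes with a lower share in WT nuclei included PCLAF, whose product binds the replication clamp PCNA, at 0%, 4.53% and 3.79% in nuclei and 33.2%, 38.6% and 39.7% in cytoplasm. PIK3C3, the class III phosphoinositide kinase, had 42.6% ± 5.15 and 78.5% ± 4.72 by TPM, but by estimated reads its share was 6.4 percentage points higher in nuclei.

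In the single knockouts nearly all of the called genes had a lower nuclear share. In AGO1 KO nuclei 3 genes were higher and 55 lower (all pairs of gene and class, 1.35% called, 0.843% higher and 0.511% lower), and without AGO1 KO replicate 7 the sum was 5, while with limma on the AGO1 KO and WT libraries alone it was 0. In AGO2 KO nuclei 4 were higher and 335 lower (6.87% of all pairs, 3.97% higher and 2.91% lower), and in place of these 339 calls there were 221 by estimated reads, 76 with edgeR on those reads and 58 with each transcript tested alone. For AGO1 KO edgeR called 10 and the transcripts tested alone gave 8. The median log2 change of the ratio over all 4443 genes was -0.22 and -0.38. MLPH, an adaptor for Rab27 on melanosomes, had 65.7%, 65.2% and 59.3% in WT and 45.9%, 41.6% and 42.4% in AGO1 KO nuclei (adjusted p = 0.00948, limma). SRGAP1, a GTPase-activating protein, had 57.8%, 55.7% and 49.0% in WT and 39.6%, 30.1% and 31.3% in AGO2 KO nuclei (adjusted p = 0.00636). Its call was lost by estimated reads, where the change was -7.7 percentage points. HSPH1, a heat-shock protein, was among the 4 higher genes in AGO2 KO. It had 22.6%, 23.6% and 20.2% in WT and 39.4%, 41.0% and 40.0% in the knockout (adjusted p = 8.9e-04, limma).

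In the lines edited at both AGO1 and AGO2 many more genes had a lower nuclear share than in WT. UBE2A, a ubiquitin-conjugating enzyme of DNA damage tolerance, had 50.1%, 55.0% and 51.0% in WT nuclei, 16.9%, 14.6% and 18.5% in AGO1/2 KO and 25.8%, 21.5% and 20.9% in AGO1/2/3 KO. MARCHF6 had 49.5%, 48.8% and 59.8% in WT and 25.2%, 21.9% and 20.6% in AGO1/2/3 KO nuclei, and CD46, a membrane regulator of complement, had 56.7%, 57.9% and 50.7% in WT and 23.9%, 22.4% and 22.6% in AGO1/2/3 KO. Both knockout lines lay below WT without overlap in UBE2A, as did AGO1/2/3 KO in MARCHF6 and CD46. The selection rule took only groups that did not overlap, so this adds no support. Groups did not overlap in 81.4% of the 4443 genes and 67.0% of all pairs of gene and class in AGO1/2 KO. In AGO1/2/3 KO these were 72.6% and 59.0%. The log2 ratio of members to the rest changed by -2.42 in UBE2A for AGO1/2 KO (adjusted p = 7.6e-07), by -1.93 in MARCHF6 for AGO1/2/3 KO (1.2e-05) and by -2.03 in CD46 for AGO1/2/3 KO (3.8e-06). UAP1, which makes UDP-N-acetylglucosamine, fell from 60% ± 15.3 to 15.2% ± 3.37 in AGO1/2 KO, and PCYOX1L from 55.5% ± 3.29 to 20.7% ± 1.45 (SD, n = 3). RGPD6 fell from 63.6% ± 3.52 to 21.8% ± 12.8, which is uncertain because of its near-identical relatives, and ARL16, a small GTPase, from 92.4% ± 2.59 to 52.8% ± 5.42. PSMB10, an immunoproteasome subunit, had 98.2%, 92.0% and 95.2% in WT but 67.7%, 71.0% and 4.41% in AGO1/2 KO, so that 1 library carried much of its change.

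In all, 1961 of the 4443 genes had a lower and 9 a higher share in AGO1/2 KO nuclei, and 1387 a lower and 8 a higher share in AGO1/2/3 KO nuclei. These are 44.3% and 31.4% of the genes tested, where 35.3% and 25% of all pairs of gene and class were called. Of those pairs 18.8% were higher and 16.5% lower in AGO1/2 KO, and 13.6% higher and 11.4% lower in AGO1/2/3 KO. The retained ratio shifted by a median of -1.06 log2 units in AGO1/2 KO and -0.78 in AGO1/2/3 KO, and that of protein_coding transcripts by 0.90 and 0.67. With estimated reads in place of TPM the counts were 1191 and 866, and with edgeR's splicing test on those reads 1052 and 658. Among the 1961 genes lower in AGO1/2 KO the members' TPM changed by a median of -0.94 log2 units and the rest of the gene by 0.37, and in 1478 of them the members went down while the rest went up. Among the 1387 genes lower in AGO1/2/3 KO the medians were -0.97 and 0.13. MALAT1 and GAPDH moved with these groups as given above, and their part in the shift was not tested. Depth moved with them too, and after thinning every library to the reads of the smallest the counts were 1957 and 1372. Thinning acted on the finished read estimates. The assignment of reads among transcripts was not repeated, so the part of depth in that step was not tested.

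Few genes ran against the shift. PCLAF had 34.5%, 26.3% and 19.9% in AGO1/2 KO nuclei and 13.9%, 14.4% and 17.4% in AGO1/2/3 KO nuclei, all above the WT values of 0%, 4.53% and 3.79% (adjusted p = 3.8e-04 and 0.00423, limma). JMJD8 had 66.0%, 79.7% and 65.6% in WT nuclei and 93.4%, 100% and 95.3% in AGO1/2/3 KO nuclei (adjusted p = 7.4e-04). LMAN1, a cargo receptor between endoplasmic reticulum and Golgi, rose from 40.6% ± 2.47 to 61.0% ± 4.76 in AGO1/2/3 KO. The keratin gene KRT15 rose from 42.2% ± 4.25 to 61.5% ± 9.83 and 59.9% ± 3.83 in AGO1/2 KO and in AGO1/2/3 KO nuclei, yet its members with a whole intron changed by -5.5 percentage points in AGO1/2/3 KO. PIK3C3 rose by 17.4 and 16.9 percentage points by TPM and changed by -3.5 and -0.2 by estimated reads, so its direction depends on the unit. The unnamed gene ENSG00000256591 had 71.3%, 57.5% and 0% in WT nuclei, and ARL14EP 19.2%, 19.3% and 0%, so their calls rest partly on the WT library at 0.

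To find genes that moved apart from that common shift, each ratio was centred on the median of its transcript class in its library, a choice made after the data were seen. Then 200 genes lay above and 78 below the other members in AGO1/2 KO nuclei at an adjusted p of 0.05 and 1 log2 unit, and 73 above and 57 below in AGO1/2/3 KO nuclei, where the same limits without centring gave 9 above and 2377 below and then 9 above and 1374 below (18.5% and 10.8% of all pairs above and 21.8% and 12.5% below). The counts of 1961 and 1387 lower genes used a 10-point limit in place of 1 log2 unit, so they differ in the limit too. The centred calls are 6.26% and 2.93% of the genes, while 10.6% and 5.48% of all pairs were called by this rule, 5.25% and 2.64% above and 5.31% and 2.84% below. The single knockouts had 3 and 9 such genes (0.204% and 0.645% of all pairs, 0.121% and 0.338% above and 0.083% and 0.306% below). Above the shift stood PCLAF, at a centred change of 4.88 log2 units in AGO1/2 KO and 3.63 in AGO1/2/3 KO, and ATP11B, a lipid flippase, at 4.26 and 3.58, although its shares were only 2.43% in WT, 9.91% in AGO1/2 KO and 7.63% in AGO1/2/3 KO. Below it stood ARL16 at -2.29 and -2.07 and BAG6, a chaperone for membrane proteins, at -2.44 and -2.57. The BAG6 shares were only 5.05% in WT, 0.348% in AGO1/2 KO and 0.397% in AGO1/2/3 KO. TRA2B was also below the shift, at -1.86 (adjusted p = 4.8e-05, limma) and -1.29 (9.9e-04).

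**Figure D3:**
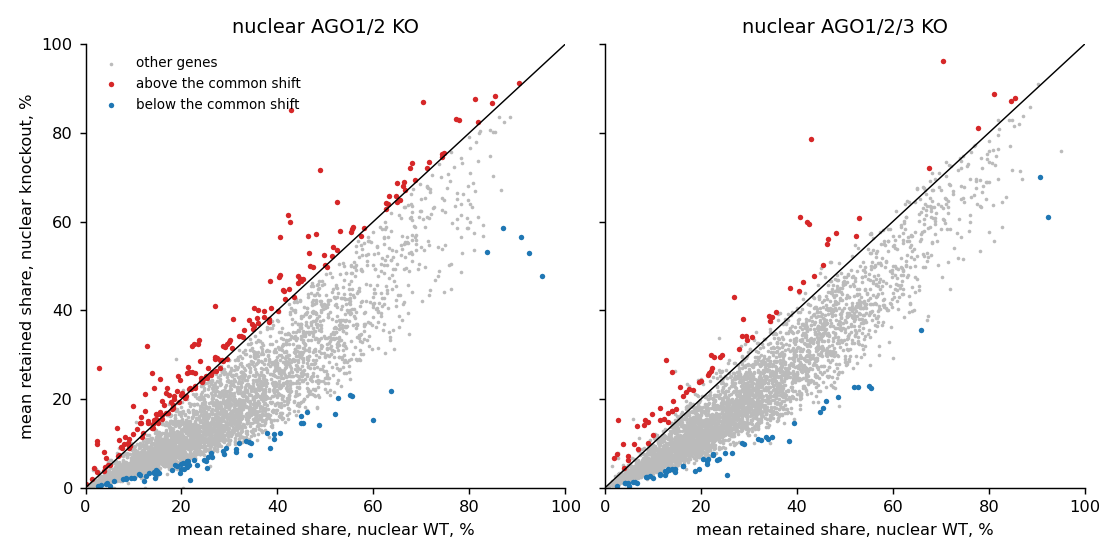
Mean retained share of each of the 4443 genes in WT nuclei (x axis, %) against AGO1/2 KO (left) and AGO1/2/3 KO (right) nuclei (y axis, %), n = 3 libraries a group, with the line of equal shares. Most genes lie under the line; red points are the 200 and 73 genes above the common shift and blue points the 78 and 57 genes below it.

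The genes of the splicing regulators themselves were read as a list of CLK kinases and SR proteins, of which 16 could be tested. Their median share was 35.6% in WT nuclei, 20.5% in AGO1/2 KO nuclei and 2.93% in WT cytoplasm, where all 4443 genes had 24.7%, 13.5% and 2.35%. In nuclei 8 of 16 fell in AGO1/2 KO and 5 of 16 in AGO1/2/3 KO, none rose, and 13 of 16 were higher in WT nuclei than in WT cytoplasm, beside 44.3%, 31.4% and 74.1% of all 4443 genes called in these comparisons. The list's median log2 change was -0.84 and -0.57, where all members had -1.06 and -0.78, and nothing particular to a list is read from such counts. TRA2B had 55.2%, 52.6% and 62.1% in AGO1/2 KO nuclei and 75.8%, 70.1% and 64.1% in AGO1/2/3 KO nuclei, all below its WT values above. Its relative TRA2A had 47.7%, 48.0% and 55.0% in WT, 21.3%, 17.9% and 25.6% in AGO1/2 KO and 37.3%, 30.3% and 29.2% in AGO1/2/3 KO (adjusted p = 5.0e-06 and 5.2e-04, limma). SRSF5, an SR protein, had 41.1%, 38.5% and 42.1% in WT and 20.9%, 21.6% and 24.8% in AGO1/2 KO. CLK1 had 65.7%, 58.1% and 61.4% in WT, 47.9%, 52.1% and 55.2% in AGO1/2 KO and 61.5%, 59.4% and 55.5% in AGO1/2/3 KO, which overlapped WT (adjusted p = 0.336). The CLK1 call in AGO1/2 KO, at 10.0 percentage points, was lost when reads were thinned (-9.2 points), by estimated reads (-9.0), without WT replicate 27 (-8.1) and without AGO1/2 KO replicate 9 (-8.1). CLK4 had 46.9%, 43.7% and 50.7% in WT and 43.4%, 41.0% and 54.2% in AGO1/2 KO nuclei, which overlapped.

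Genes with well-studied retained or detained introns had the highest nuclear shares of the lists, at a median of 53.4% over 20 genes in WT nuclei. Their median ratio changed by -0.59 log2 units in AGO1/2 KO and -0.46 in AGO1/2/3 KO, where all members changed by -1.06 and -0.78, and after centring the list's median was 0.46 and 0.31. Calls were made for 9 of 20 in AGO1/2 KO and 5 of 20 in AGO1/2/3 KO, all lower, beside 44.3% and 31.4% of all genes tested. DDX5, an RNA helicase, fell from 52.9%, 59.1% and 65.1% to 34.1%, 34.2% and 34.1% in AGO1/2 KO nuclei, and DDX39B, a helicase of mRNA export, from 63.8%, 59.0% and 59.5% to 41.5%, 37.2% and 42.7%. TAF1D, an RNA polymerase I factor, had 58.5%, 58.5% and 60% in WT and 54.0%, 55.0% and 57.6% in AGO1/2 KO (adjusted p = 0.0737). MAT2A, the S-adenosylmethionine synthetase, had 21.6% ± 0.430 in WT, 17% ± 0.875 in AGO1/2 KO and 20.9% ± 1.14 in AGO1/2/3 KO, and CCNL1, a cyclin of speckle-associated kinases, had 88.5% ± 0.319, 83.6% ± 1.03 and 85.9% ± 1.36 (SD, n = 3). Neither passed the 10-point limit.

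**Figure D4:**
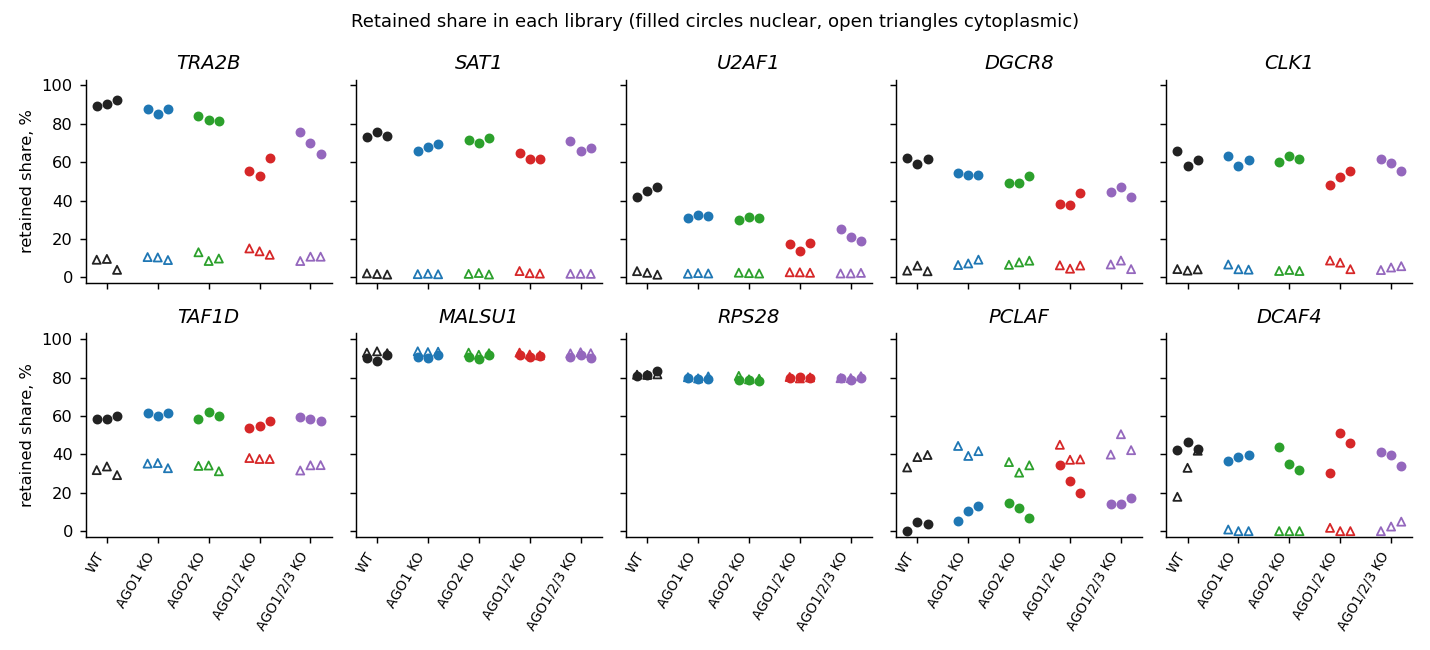
Retained share (y axis, %) of 10 genes in each of the 30 libraries, nuclear as filled circles and cytoplasmic as open triangles, by genotype. TRA2B, U2AF1 and DGCR8 are lower in AGO1/2 KO nuclei and in AGO1/2/3 KO nuclei, MALSU1 and RPS28 are high in both fractions of every genotype, and the cytoplasmic share of DCAF4 is at most 4.95% in every knockout library.

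Of the core spliceosome genes, 7 of 18 fell in AGO1/2 KO and 7 of 18 in AGO1/2/3 KO nuclei, where 44.3% and 31.4% of all genes tested were called. Their median log2 change was -1.22 and -0.82, beside -1.06 and -0.78 over all members. U2AF1, the U2AF subunit that recognises the AG at the 3′ splice site, had 42.1%, 45.2% and 47.1% in WT, 17.2%, 13.5% and 18.0% in AGO1/2 KO and 25.1%, 21.3% and 18.8% in AGO1/2/3 KO nuclei (log2 ratio -2.07 and -1.55, adjusted p = 1.1e-06 and 2.0e-05, limma). The most abundant U2AF1 member, U2AF1-208, keeps the whole of intron 2 of 7 and averaged 14.9, 5.89 and 6.10 TPM in these groups. SF1, which binds the branch point, fell from 36.7% ± 1.36 to 18.1% ± 1.91 and 22.5% ± 2.14, although by estimated reads it changed by -7.1 and -5.6 points, under the limit. SF3B3 had 66.4% ± 0.573 in WT, 68.8% ± 2.18 in AGO1/2 KO and 71.7% ± 2.62 in WT cytoplasm, and its most abundant member held 91 intronic bases.

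Genes of mRNA export and the exon junction complex had 5 of 12 lower in AGO1/2 KO and 4 of 12 in AGO1/2/3 KO nuclei, shares that stand beside 44.3% and 31.4% of all genes, with a median log2 change of -1.23 and -0.69 beside -1.06 and -0.78. THOC1, a subunit of the THO export complex, had 72.6%, 72.0% and 82.7% in WT, 50.1%, 47.2% and 53.6% in AGO1/2 KO and 60.3%, 58.5% and 54.9% in AGO1/2/3 KO nuclei, with neither knockout overlapping WT. MAGOHB, a subunit of the exon junction complex, was the list's member with a lower share in WT nuclei (15.9%) than in WT cytoplasm (29.6%), an order that turned by estimated reads (6.3 points higher in nuclei).

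Of the RNA interference genes, the pathway of the edited AGO genes, 7 of 12 were lower in AGO1/2 KO and 5 of 12 in AGO1/2/3 KO nuclei, against 44.3% and 31.4% of all 4443 genes called. The list's median log2 change of -1.09 and -0.75 lay close to the -1.06 and -0.78 of all members. DGCR8, the partner of DROSHA in making microRNA precursors, had 62.2%, 59.0% and 61.5% in WT, 38.2%, 37.8% and 43.8% in AGO1/2 KO and 44.5%, 47.2% and 41.9% in AGO1/2/3 KO (adjusted p = 4.3e-06 and 7.0e-05, limma). PRKRA, a DICER1 partner, fell from 57.0% ± 3.09 to 33.7% ± 1.21 and 37.3% ± 5.28. TNRC6A, the scaffold that AGO proteins bind in silencing, fell from 42.1% ± 3.99 to 15.5% ± 1.04 and 21.1% ± 2.75 by TPM, but by estimated reads it changed by -5.6 and -4.8 points. AGO2 had a share of 14.4% ± 3.28 in WT nuclei, 5.98% ± 0.368 in AGO1/2 KO and 12.9% ± 1.58 in AGO1/2/3 KO, and AGO3 had 31.2% ± 5.73, 25.4% ± 6.91 and 28.5% ± 1.61, and neither was called. The edits lie in AGO genes themselves, so their own shares are no independent reading of the pathway.

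Of the genes the study followed up as splicing candidates, 4 could be tested, and 3 fell in AGO1/2 KO and 2 in AGO1/2/3 KO nuclei, where 44.3% and 31.4% of all genes were called and the median log2 change was -1.04 and -0.89 beside -1.06 and -0.78 over all members. The study picked them on these samples for skipped or included exons near intronic AGO2 binding. It checked those events by RT-PCR and in DROSHA knockout cells, and cites TNRC6 knockout cells from an accompanying study. For FKBP14 it also used microRNA mimics and anti-miRs, whose effects it calls modest and not conclusive. The retained share is a different measure and does not re-read those exon events. As the samples are the same, the direction of the shares is not independent evidence. PHLDB1 had 43.9%, 41.7% and 45.9% in WT, 24.0%, 25.7% and 26.5% in AGO1/2 KO and 33.2%, 27.1% and 26.3% in AGO1/2/3 KO nuclei. KIF21A, a kinesin, fell from 22.8% ± 0.818 to 9.65% ± 1.13 and 10.9% ± 1.06. FKBP14, a prolyl isomerase, fell from 38.6% ± 10.3 to 24.5% ± 4.12 in AGO1/2 KO, a call lost by estimated reads (-5.5 points), after thinning (adjusted p = 0.0848, limma), without WT replicate 29 (-8.4 points) and without AGO1/2 KO replicate 10 (adjusted p = 0.0726).

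Genes of the translation machinery made up the remaining lists. Of 66 cytosolic ribosomal protein genes, whose median share was 7.97% in WT nuclei and 0.432% in WT cytoplasm, 4 fell in AGO1/2 KO nuclei and 2 fell in AGO1/2/3 KO nuclei, fewer for their number than the 44.3% and 31.4% of all genes called. Most of these genes started below 10%, and their median log2 change of -1.34 and -0.94 stood beside -1.06 and -0.78 for all members. RPS13 had 23.1%, 22.2% and 21.0% in WT, 7.40%, 6.36% and 8.14% in AGO1/2 KO and 12.8%, 10.4% and 9.55% in AGO1/2/3 KO nuclei. RPS23 had 55.5% ± 1.32 in WT nuclei, 58.3% ± 0.621 in AGO1/2 KO nuclei and 55.8% ± 0.542 in WT cytoplasm. Of 18 aminoacyl-tRNA synthetase genes, which charge tRNAs, 9 fell in AGO1/2 KO and 5 in AGO1/2/3 KO nuclei, beside the same 44.3% and 31.4%, and their median log2 change was -1.05 and -0.58. HARS1, the histidyl enzyme, had 35.7%, 35.0% and 38.8% in WT and 14.3%, 11.9% and 16.3% in AGO1/2 KO, and LARS1, the leucyl enzyme, had 45.1%, 46.8% and 49.4% in WT and 42.2%, 43.3% and 40.1% in AGO1/2 KO (adjusted p = 0.0599, limma).

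**Figure D5:**
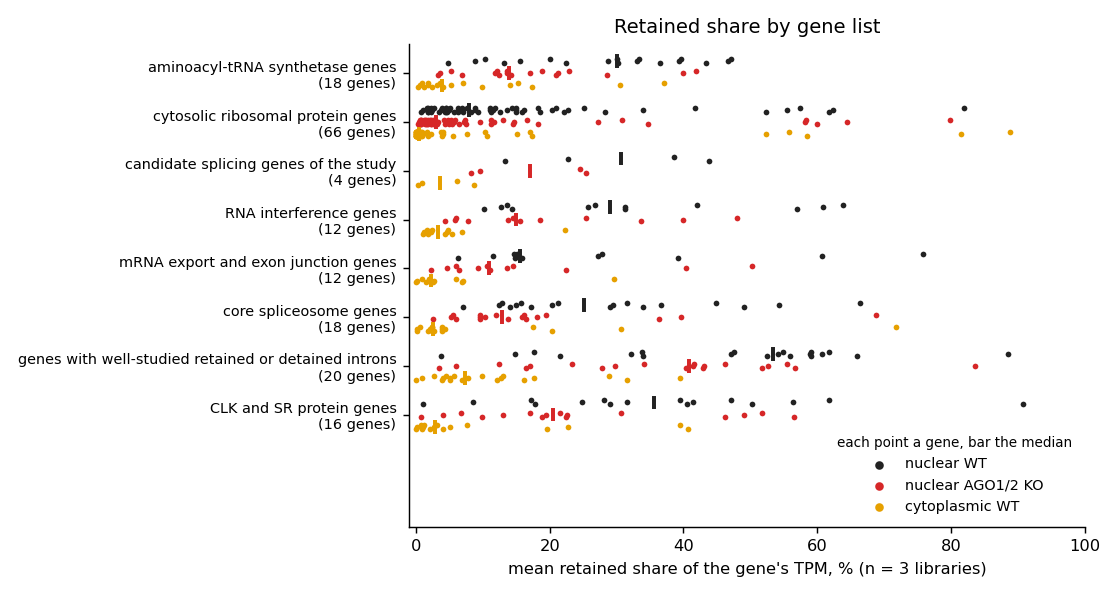
Mean retained share (x axis, %, n = 3 libraries) of each tested gene (points) in 8 gene lists (y axis), with the median as a bar, in WT nuclei (black), AGO1/2 KO nuclei (red) and WT cytoplasm (orange). The list medians stand between 7.97% and 53.4% in WT nuclei, and each is lower in AGO1/2 KO nuclei and lower still in WT cytoplasm.

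In cytoplasm few genes changed. The calls were 5 higher and 12 lower in AGO1 KO (0.402% of all pairs of gene and class, 0.198% higher and 0.204% lower), 2 and 12 in AGO2 KO (0.294%, 0.134% and 0.16%), 29 and 20 in AGO1/2 KO (1.42%, 0.664% and 0.76%), and 9 and 14 in AGO1/2/3 KO (0.492%, 0.223% and 0.268%). With edgeR on estimated reads 3, 1, 4 and 2 were called. DCAF4, a substrate adaptor of CUL4 ubiquitin ligases, had 17.9%, 33.0% and 41.9% in WT cytoplasm and means of 0.281% in AGO1 KO, 0% in AGO2 KO, 0.575% in AGO1/2 KO and 2.45% in AGO1/2/3 KO. Its most abundant member, DCAF4-204, averaged 1.5 TPM in WT cytoplasm and was listed at 0 in all 4 cytoplasmic knockout groups. By estimated reads the DCAF4 changes were -7.3 to -7.7 points, under the limit of 10. PIAS4, a SUMO ligase, had 33.3%, 40.9% and 34.9% in WT and 0% in all 3 AGO1/2 KO libraries, while its most abundant member averaged 3.36, 3.32 and 2.89 TPM in the other knockouts. TMEM135 went from 26.5% ± 0.817 in WT to 1.25% ± 1.0 in AGO2 KO and 1.14% ± 0.364 in AGO1/2/3 KO, and by estimated reads changed by -1.0 and -1.1 points. The 4 DCAF4 comparisons share the same WT libraries.

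Higher cytoplasmic shares were found for AGRN, the heparan sulfate proteoglycan agrin, at 11.5%, 15.0% and 7.31% in WT, 34.6%, 40.5% and 30.6% in AGO1/2 KO and 26.4%, 31.1% and 23.7% in AGO1/2/3 KO. DNAJC10, a disulfide reductase of the endoplasmic reticulum, had 30.2%, 36.3% and 29.8% in WT, 42.7%, 44.9% and 44.6% in AGO2 KO and 45.4%, 48.9% and 47.5% in AGO1/2/3 KO. POLR1C, a subunit shared by RNA polymerases I and III, had 3.83%, 1.99% and 14.7% in WT and 19.6%, 100% and 80.6% in AGO1/2/3 KO, on 0.361 TPM of members and 0.722 TPM of the rest of the gene. SIRT7, a deacetylase of the nucleolus, had 39.6%, 34.2% and 24.3% in WT and 53.9%, 67.7% and 47.0% in AGO1/2 KO. These groups did not overlap, as the selection rule required. With only the compared groups in the fit the calls were lost for DNAJC10 in both knockouts, POLR1C, SIRT7 and AGRN in AGO1/2/3 KO, and by estimated reads the AGRN change in AGO1/2 KO was 8.1 points. Leaving out 1 library ended the POLR1C call for 5 of its 6 libraries, WT replicate 29 being the exception.

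A test of the difference itself asked where nuclear and cytoplasmic changes were unequal. In AGO1/2 KO 1840 genes had a more negative change in nuclei than in cytoplasm and 15 a more positive one, with 33.1% of all pairs called (17.4% more positive and 15.7% more negative). In AGO1/2/3 KO the counts were 1040 and 15, with 19.2% of pairs called (10.3% and 8.82%). The test was on log2 ratios, but a call also needed a difference of 10 points. Median shares were 24.7% in WT nuclei and 2.35% in WT cytoplasm, so most genes had little room to fall in cytoplasm. TRA2B had a nuclear minus cytoplasmic change of -40.0 points (adjusted p = 1.6e-07, limma), its cytoplasmic share being 15.1%, 13.6% and 11.8%. CLK4 ran the other way in AGO1/2/3 KO, with 51.1%, 51.5% and 49.8% in nuclei and 10.2%, 6.55% and 5.58% in cytoplasm, where WT had 36.9%, 26.1% and 55.6%. Its difference of 35.8 points (adjusted p = 0.0267) was lost when reads were thinned (adjusted p = 0.0712), and among transcripts with a whole intron it was -1.9.

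Features of the retained intron were set beside the change, as a description over genes with a whole retained intron. Ordered by mean GC content of those introns, the 541 genes at 13.6% to 40.0% had a median log2 change of -1.14 in AGO1/2 KO nuclei and 56.7% called, and the 540 genes at 61.3% to 82.3% had -0.90 and 39.4%. The excess in WT nuclei over cytoplasm had medians of 4.02 and 2.74 log2 units in those groups of genes, and median cytoplasmic WT shares were 2.04% and 4.11%. By length of the shortest retained intron the share called ran from 46.0% at 56 to 91 bases to 53.2% at 453 to 6484 bases. Genes are not independent replicates, and no test was made on these groups.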

How the data were processed

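The 30 RNA-seq libraries of the 10 groups were used; the 8 eCLIP samples were not analysed here. The authors quantified transcripts with Salmon, and the deposited tables list estimated counts and TPM for each transcript. The submitters' notes name STAR 2.5.3a, Salmon 0.11.0, DESeq2 and hg38; other tool versions stand in the study's methods, and the annotation named there could not be matched to a GENCODE release. Transcript types were therefore taken from GENCODE 44 by identifier, which matched 195887 of 200401 transcripts. Of the matched transcripts 85.2% had the same length in GENCODE 44 as in the deposited tables, as had 16773 of the 17718 members. For the rest the quantified transcript differs from the one used to place its introns. TPM was as deposited; recomputing it from estimated counts and effective lengths gave values within 5.6e-02% for TPM of 1 or more. Transcripts of a gene were summed by class (retained_intron, protein_coding, nonsense_mediated_decay, other). Gene-by-class pairs averaging 0.5 TPM on each side were tested on log2((class TPM + 0.1)/(rest of gene TPM + 0.1)) with limma's trended empirical Bayes fit, over the 15 libraries of a fraction for knockouts and all 30 for fractions, and adjusted by Benjamini-Hochberg over 15662 pairs. A call needed an adjusted p of 0.05, 10 percentage points and gene TPM of 1 in both groups. The pseudocount draws the ratios of low genes toward 0, and assigning reads among overlapping transcripts is an estimate that short transcripts make uncertain. Named genes were the called, non-overlapping genes with the largest change in percentage points (10 each way in nuclear AGO1/2/3 KO and in WT fractions, 6 in nuclear AGO1/2 KO and cytoplasmic AGO1/2/3 KO, 3 elsewhere), the 4 most unequal, the 10 highest in WT nuclei, and members of the lists; others are said to be chosen later. Some genes that met this rule are not reported here. The members and lists were chosen with earlier results of these data known. The limma fit and its adjusted p were tested on simulated log2 ratios for nuclear AGO1/2 KO against WT. The other steps were not tested on simulated data. R limma 3.58.1 and edgeR 4.0.16 and Python 3.11.15 were used. Coordinates are those of GENCODE 44 on hg38.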

Additional observations from a re-analysis of the deposited data

Results flagged for a closer look

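The changes in nuclei and in cytoplasm differed, by the interaction term of limma across all 30 libraries, for 1855 genes in AGO1/2 KO and 1055 genes in AGO1/2/3 KO, and the named genes among them are given here as the nuclear minus the cytoplasmic change in percentage points. Most were more negative in nuclei. In AGO1/2 KO the differences were -49.7 for RGPD6, which has near-identical relatives, -44.0 for UAP1, -40.0 for TRA2B, -39.7 for SIRT7, -38.9 for ARL16, -34.9 for UBE2A, -34.9 for PCYOX1L, -24.8 for PAN2, a deadenylase subunit, and -20.8 for AGRN. In AGO1/2/3 KO they were -84.0 for POLR1C, -37.9 for WDR90, -33.0 for PCYOX1L, -32.3 for CD46, -31.8 for POMT2, -31.5 for POC1B, -30.7 for REXO2, -30.0 for ARL16, -29.9 for MARCHF6, -29.2 for UBE2A, -19.7 for USP40, -16.0 for DNAJC10, -15.9 for AGRN and -12.7 for ABL2. The POLR1C value rests on a gene of about 1 TPM in cytoplasm.

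Other genes were more positive in nuclei. In AGO1/2 KO these were ENSG00000256591 at 38.7, DCAF4 at 28.9, PIAS4 at 26.5, PIK3C3 at 21.7 and PCLAF at 21.5. In AGO1/2/3 KO they were CLK4 at 35.8, TMEM135 at 24.3, JMJD8 at 24.1, PIK3C3 at 23.7, ARL14EP at 23.4, DCAF4 at 23.0, PTPN4 at 20.3 and DAXX, a histone chaperone, at 14.0. The PIK3C3 and TMEM135 changes were far smaller or turned sign by estimated reads, as given in the report. What produced these differences was not tested.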

How the results depend on the processing

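Counts of called genes are given for AGO1 KO, AGO2 KO, AGO1/2 KO and then AGO1/2/3 KO in that order unless named. Of 443 recomputed counts and library differences, 333 stayed (a count within 1.5 times the reported one, a library difference with its sign, since no exact p here could pass 0.05), 106 counts moved further and 4 library differences turned sign; of 4032 values of named genes, 370 lost and 21 gained a call and 18 turned sign. By estimated reads the nuclear AGO2 KO, AGO1/2 KO and then AGO1/2/3 KO counts were 221, 1191 and 866, the cytoplasmic counts 7, 3, 13 and 8, the fraction counts 2074 in WT and 1850, 1660, 1027 and 1285 in the knockouts, and the unequal changes 1077 and 605. With edgeR's diffSpliceDGE on those reads they were 10, 76, 1052 and 658 in nuclei, 3, 1, 4 and 2 in cytoplasm, 2050 in WT and 1820, 1623, 981 and 1243 between fractions, and 535 and 128. With each transcript tested alone they were 8, 58, 653 and 352 in nuclei, 11 and 9 in cytoplasm for the single knockouts, 1928, 1647, 723 and 1107 between fractions, and 687 and 312. Transcripts with a whole canonical intron, of which fewer genes have any, gave 2, 23, 350 and 198 in nuclei, 2, 1, 13 and 4 in cytoplasm, 1032 in WT and 912, 830, 420 and 576 between fractions, and 405 and 197. At a gene mean of 10 TPM the cytoplasmic counts were 11, 8, 28 and 15. At 2 TPM on each side they were 11 and 7 for the single knockouts in cytoplasm, 1279 for nuclear AGO1/2 KO, 1890 in WT and 1787, 1684 and 1468 between fractions for AGO1 KO, AGO2 KO and AGO1/2/3 KO, and 1207 unequal changes in AGO1/2 KO. The nuclear AGO1 KO count was 36 with no low-value filter, 23 with thinned reads and 0 with limma on only the compared groups, against 1083 genes at an unadjusted p of 0.05 with all groups fitted. Cytoplasmic AGO1/2 KO gave 16 with only the compared groups, 31 with a pseudocount of 0.01 and 28 with thinned reads; thinning also gave 9 and 15 in cytoplasmic AGO2 KO and AGO1/2/3 KO and 0 centred calls in AGO1 KO, where edgeR was not run. A pseudocount of 1 gave 26 and 47 in cytoplasmic AGO2 KO and AGO1/2/3 KO, and 179 and 86 centred calls in nuclear AGO1/2 KO and then AGO1/2/3 KO. Without centring the calls at 1 log2 unit were 21, 129, 2386 and 1383. The causes were not tested.

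The median over genes in place of the library percentage turned the cytoplasmic difference to 0.436 in AGO1/2 KO and 0.0908 in AGO1/2/3 KO, and transcripts with a whole intron turned the latter to 0.0438. Single genes turned too. By estimated reads, with limma and edgeR, PIK3C3 changed by -3.5 and -0.2 points in nuclear AGO1/2 KO and then AGO1/2/3 KO and differed by 6.4 and 5.7 between the fractions of WT and AGO1 KO, and MAGOHB differed by 6.3 between WT fractions. Among transcripts with a whole intron MAGOHB differed by 15.6, KRT15 by 2.7 between WT fractions and -5.5 in nuclear AGO1/2/3 KO, PSMB10 by 4.2 between AGO1/2 KO fractions and CLK4 by -1.9 in its unequal change, while in cytoplasm CTSH changed by 0.3, PTPN18 by -0.4 and DAXX by 0.2.

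Leaving out 1 library at a time moved the nuclear library differences between -2.44 and -2.18, -3.55 and -3.29, -7.44 and -7.08, and -6.24 and -5.60, the cytoplasmic ones between 0.200 and 0.248, -0.0523 and 0.0640, -0.558 and -0.338, and -0.123 and -0.0566, and the fraction differences between 12.2 and 12.5 in WT and 9.71 and 9.93, 8.83 and 9.01, 5.37 and 5.73, and 6.19 and 6.84 in the knockouts. Counts ran from 5 to 37, 260 to 344, 1881 to 2047 and 1196 to 1521 in nuclei, from 10 to 20, 7 to 15, 24 to 49 and 15 to 30 in cytoplasm, from 3240 to 3287 in WT and 2992 to 3035, 2747 to 2791, 1661 to 1819 and 2168 to 2347 between fractions, from 1708 to 1891 and 817 to 1123 for unequal changes, and from 0 to 5, 6 to 18, 258 to 343 and 102 to 162 for centred calls. The nuclear AGO1 KO count moved past 1.5 times without any 1 of its 6 libraries (37, 18 and 29 without WT replicates 27, 28 and 29, and 27, 5 and 20 without AGO1 KO replicates 6, 7 and 8). In cytoplasm this held without AGO1 KO replicates 7 or 8 (10 each), WT replicate 28 (9) and AGO2 KO replicates 9 and 10 (9 and 7), AGO1/2 KO replicates 9 and 10 (31 and 24) and AGO1/2/3 KO replicate 12 (15), and for centred AGO2 KO calls without WT replicates 27 and 29 (15 and 18).

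Nuclear and cytoplasmic libraries share passage numbers, but deviations of same-passage libraries correlated only between -0.021 and 0.040, so passages were not treated as pairs. With a replicate block by passage the fraction counts were 3301 in WT and 3042, 2785, 1758 and 2265 in the knockouts, and the library differences of 12.4, 9.79, 8.90, 5.56 and 6.51 had an exact sign-flip p of 0.250, the smallest possible. The block ended the calls of LZTR1 in AGO2 KO (adjusted p = 0.0554, limma) and ARL14EP in WT (0.0766). Depth limits the low genes most, since a share on about 1 TPM of members rests on few reads.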
